A study of Mus musculus with 9 samples.

Results

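The genes described here are 42 genes of mitosis, the mitotic spindle and cytokinesis, among 19840 gene names and unnamed transcript records measured in each library. They were taken by name rather than by a rule on their values, though earlier results of these data were known, and fall into 6 roles. These are 10 cyclins and kinases or phosphatases of mitotic entry with the transcription factor Foxm1, 6 genes of the spindle checkpoint with the activator it holds back, 7 of the centromere and kinetochore, 3 spindle motors and assembly factors, 5 of chromosome structure, and 11 of the chromosomal passenger complex and cytokinesis. The formin gene written Diap3 in the list was found under its symbol Diaph3. All 42 genes had a level of at least 1 normalised RPKM (a read density corrected for transcript length in kilobases and for depth in M, or mega, reads, then divided by 1 scaling factor per library) in each of the 9 libraries, so none was lost to the filter on low values.

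RNA was sequenced from erythroid cells of C57BL/6 mouse fetal liver at embryonic day 13.5 to 14.5, with 1 library for each condition and 9 libraries in all. Fresh cells gave 3 libraries. BFU-E are early progenitors that grow into bursts of erythroid colonies, CFU-E are their later descendants that form single small colonies, and Ter119+ cells are erythroblasts without surface Kit. Both progenitors carried Kit and lacked Ter119, CD34, CD41 and surface markers of B, T and myeloid cells. The lowest 10% for CD71, the transferrin receptor, were taken as BFU-E and the highest 20% as CFU-E. Cultured BFU-E gave 6 libraries, of which 2 used the CD71 gate (CD71 sort) and 4 added a low CD24a gate (CD71/CD24a sort). All of them were cultured without serum, with stem cell factor (100 ng/mL), erythropoietin (2 U/mL) and IGF-1 (40 ng/mL), for 4 h before an agent was added and 4 h after. In the CD71 sort the arms were 100 nM dexamethasone (Dex, a synthetic glucocorticoid) and water. In the CD71/CD24a sort they were Dex with 333 µM dimethyloxalylglycine (DMOG, an inhibitor of prolyl hydroxylases), Dex, DMOG, and water. The labels do not say how many embryos were pooled for a sort.

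The libraries held 11.8 to 52.8 M reads, as recovered from the deposited values; the CD71 sort cultures were the shallowest and the arms with DMOG the deepest. The labels of the fresh libraries were checked against markers of each stage. Kit stood at 175.5 normalised RPKM in BFU-E, 83.0 in CFU-E and 2.45 in Ter119+ cells, and Tfrc, which encodes CD71, at 18.9 in BFU-E, 104 in CFU-E and 1040 in Ter119+ cells. In the cultured libraries Kit was 43.3 to 93.0 and Tfrc 114 to 233, each nearer CFU-E than fresh BFU-E. Klf1 went the other way, at 62.4 to 187 in culture, 187 in fresh BFU-E and 337 in CFU-E. Globin transcripts held 39.1% of all RPKM in the Ter119+ library. The other libraries held between 0.0211% and 0.636%. That library also took the lowest scaling factor, 0.419, against 1.02 to 1.18 elsewhere. Comparisons with it therefore depend on scaling. Counts of genes are given under 3 scalings there, and single levels and differences are after median-ratio scaling unless stated.

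A dividing cell enters mitosis when cyclin A and cyclin B activate the kinase CDK1, after CDC25 phosphatases remove its inhibitory phosphates. Kinetochores then bind spindle microtubules, and the spindle checkpoint blocks CDC20, an activator of the anaphase-promoting complex (APC/C), until every chromosome is attached. Once cyclin B and securin are degraded the chromosomes part, and the chromosomal passenger complex and the central spindle direct the cleavage furrow. Erythroid cells divide several times while they make hemoglobin and stop dividing before the nucleus is expelled. Transcripts of many of these genes accumulate late in the cell cycle under the MuvB complex with B-MYB and FOXM1, which acts through a promoter element called CHR, often beside CCAAT boxes bound by NF-Y.

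Promoters were examined because most of the genes moved together in Ter119+ cells. RefSeq promoters (GRCm38.p6, 250 bases before to 50 after a gene's start) were found for 33 of the 42 genes. They are shown for Ccnb2, Cdk1 and Mki67, which hold both elements, and for Cdc25b, the gene with the largest difference between stages, which lacks the first. Each is printed 5′ to 3′ on the gene's strand. Capitals mark TTTGAA, a common form of the CHR, and CCAAT, each on either strand. Read on the opposite strand the first element appears as TTCAAA, while the box appears there as ATTGG.
Ccnb2 (chr9:70421505-70421804, minus strand): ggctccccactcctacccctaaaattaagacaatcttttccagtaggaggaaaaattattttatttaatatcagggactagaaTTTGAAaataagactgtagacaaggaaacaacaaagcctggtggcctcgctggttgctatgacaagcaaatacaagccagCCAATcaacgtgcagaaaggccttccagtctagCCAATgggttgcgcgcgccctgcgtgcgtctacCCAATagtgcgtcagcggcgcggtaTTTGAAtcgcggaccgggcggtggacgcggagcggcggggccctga
Cdk1 (chr10:69352863-69353162, minus strand): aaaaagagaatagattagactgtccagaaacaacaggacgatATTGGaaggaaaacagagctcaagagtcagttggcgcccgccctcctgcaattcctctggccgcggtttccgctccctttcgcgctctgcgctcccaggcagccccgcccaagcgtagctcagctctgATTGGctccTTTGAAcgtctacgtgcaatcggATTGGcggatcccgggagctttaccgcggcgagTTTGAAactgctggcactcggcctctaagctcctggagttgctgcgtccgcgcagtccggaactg
Mki67 (chr7:135716330-135716629, minus strand): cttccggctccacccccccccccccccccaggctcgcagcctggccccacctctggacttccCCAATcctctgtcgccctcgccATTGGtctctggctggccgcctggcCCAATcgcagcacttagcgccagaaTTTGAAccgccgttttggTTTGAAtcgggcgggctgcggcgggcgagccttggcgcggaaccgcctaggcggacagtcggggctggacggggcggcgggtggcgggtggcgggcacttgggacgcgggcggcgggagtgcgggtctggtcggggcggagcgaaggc
Cdc25b (chr2:131186698-131186997, plus strand): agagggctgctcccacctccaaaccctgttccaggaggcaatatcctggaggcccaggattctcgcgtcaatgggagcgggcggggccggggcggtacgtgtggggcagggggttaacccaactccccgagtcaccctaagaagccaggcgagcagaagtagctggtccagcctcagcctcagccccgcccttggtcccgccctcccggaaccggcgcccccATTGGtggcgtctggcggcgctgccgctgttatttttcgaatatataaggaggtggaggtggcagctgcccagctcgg

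The first 3 promoters each hold 2 TTTGAA matches and 3 CCAAT matches, and that of Cdc25b holds 0 and 1. TTTGAA was present on either strand in a promoter of 23 of 33 genes (69.7%), against 20.2% of the 27025 genes with a promoter in the RefSeq table. CCAAT was present in 25 of 33 (75.8%), against 41.1% of these genes, and both motifs in 20 of 33 (60.6%), against 7.97%. Matches of both motifs may overlap by end letters, since the box ends with the letter that begins the other element. TTTGAA occurred in 41 of 101 genes (40.6%) of a wider list of mitosis genes and in 7 of 40 DNA replication genes (17.5%). It was not found in the windows of Ccnb1, Cdc25b, Plk4, Bub1, Mad2l1, Cenpe, Nuf2, Birc5, Cit and Diaph3. These are matches of letters, and no binding was measured. In Ter119+ cells against CFU-E the median log2 difference was 2.10 for the 23 genes with TTTGAA and 2.04 for the 10 without, and the ranges of 0.45 to 3.93 and 0.82 to 6.40 overlapped.

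The fresh libraries show how these transcripts stand along erythroid maturation. No test was made, since each stage is 1 library. A difference of at least 2-fold on log2(normalised RPKM + 1) was used as a fixed size rule, and 95% exact (Clopper-Pearson) intervals of a ratio cover counting error only. The 42 genes had a median of 22.7 normalised RPKM in BFU-E, 26.6 in CFU-E and 105 in Ter119+ cells. As deposited, without scaling, these medians were 23.98 in BFU-E, 28.9 in CFU-E and 43.99 in Ter119+ cells. After scaling, their lowest and highest members were Ndc80 at 6.19 and Mki67 at 88.8 in BFU-E, Ect2 at 7.34 and Mki67 at 118 in CFU-E, and Ttk at 15.0 and Mki67 at 1803 in Ter119+ cells. In a bulk library, fewer cells of a type and less RNA per cell cannot be told apart.

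**Figure D1:**
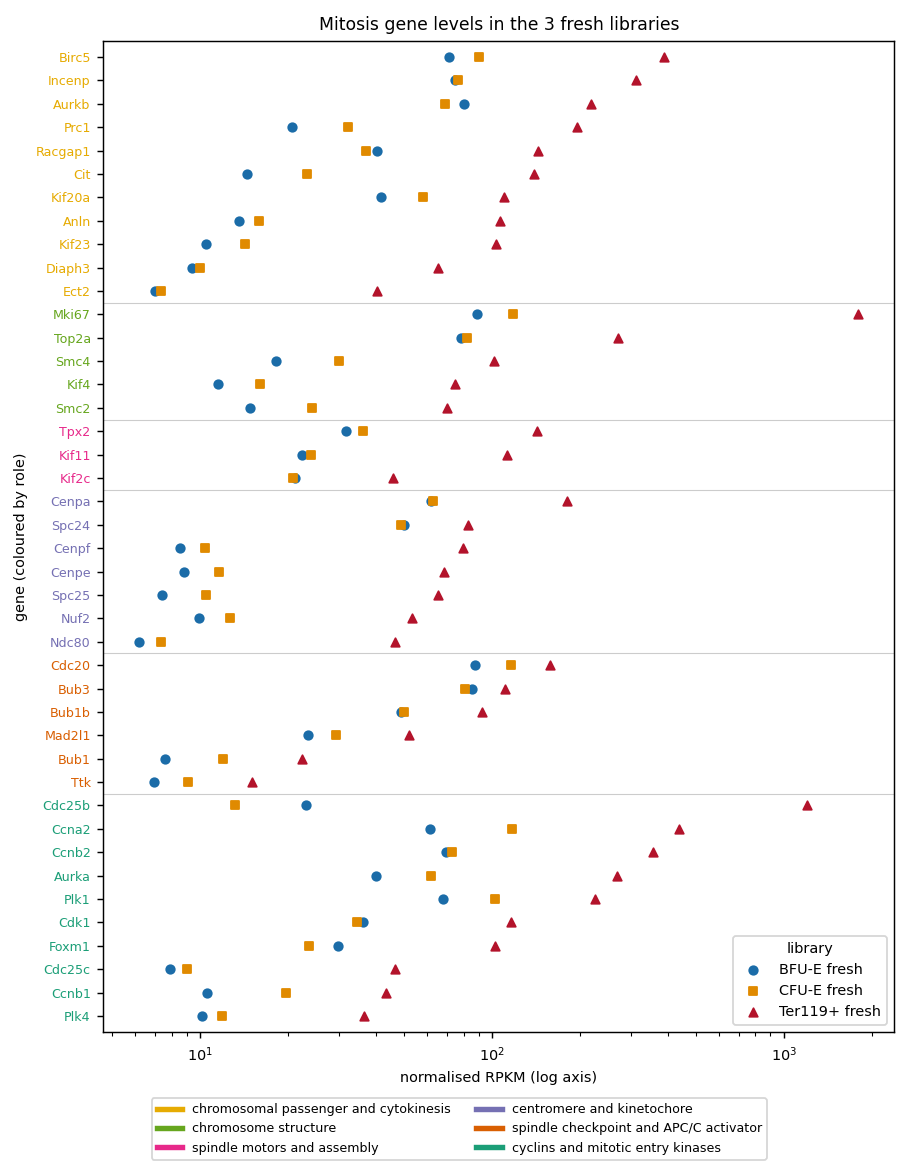
Normalised RPKM of each of the 42 genes in the 3 fresh libraries on a log axis, grouped and coloured by role, with 1 point per library and no replicates. BFU-E and CFU-E points lie close together for most genes, while the Ter119+ point is the highest for all 42, farthest out for Mki67 at 1803 and Cdc25b at 1198.

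CFU-E and BFU-E differed little in these genes. Of the 42, 0 were at least 2-fold higher and 0 at least 2-fold lower in CFU-E, where 3.32% of the 9947 genes compared were that much higher and 12.3% that much lower. A smaller shift ran through the list, with 34 genes above 0 and 8 below, and a median log2 difference of 0.24 against -0.08 over all genes. Ccna2, whose cyclin A2 acts in S phase and at mitotic entry, had 117 normalised RPKM in CFU-E and 61.2 in BFU-E, a ratio of 1.91 (1.84 to 1.99). Ccnb1, which encodes cyclin B1, had 19.7 in CFU-E and 10.5 in BFU-E, a ratio of 1.87 (1.68 to 2.07). Smc4, a core subunit of condensin, had 30.0 in CFU-E and 18.1 in BFU-E, a ratio of 1.65 (1.55 to 1.76), and its partner Smc2 had 24.1 in CFU-E and 14.9 in BFU-E. Lower in CFU-E were Cdc25b, a phosphatase that activates CDK1, with 13.2 in CFU-E and 23.1 in BFU-E (ratio 0.569, 0.524 to 0.618), Foxm1 with 23.7 in CFU-E and 29.8 in BFU-E (0.794, 0.753 to 0.838), and Aurkb, the kinase of the passenger complex, with 68.8 in CFU-E and 80.0 in BFU-E (0.860, 0.819 to 0.903). Cdk1 itself had 34.5 in CFU-E and 36.3 in BFU-E. The 8 genes below 0 numbered 6 on RPKM as deposited, where Spc24 and Kif2c lay just above 0.

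Other genes of division were read from 2 lists. Of 118 further mitosis genes that passed the filter, 0 were 2-fold higher in CFU-E and 3 were lower. Pimreg, a mitotic regulator that binds CALM, had 0.711 in CFU-E and 19.2 in BFU-E, and Cep55, a midbody protein needed for abscission, had 0.317 in CFU-E and 3.94 in BFU-E. Depdc1b had 4.44 in CFU-E and 13.5 in BFU-E. Among 48 DNA replication genes 3 were 2-fold higher in CFU-E and 0 lower, with a median log2 difference of 0.19 against 0.15 for the further mitosis genes.

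Ter119+ cells stood far above CFU-E in most of the 42 genes after scaling. At 2-fold or more, 34 of 42 were higher and 0 lower, where 22.6% of 9530 genes were higher and 28.8% lower. The median log2 difference was 1.97 for the 42 genes and -0.21 over all genes. On RPKM as deposited these medians were 0.62 and -1.30, with 11 genes 2-fold higher where 8.46% of all genes were, and with 31 above 0 and 11 below. With libraries scaled to their RPKM outside the globin genes, they were 0.98 and -1.04, with 21 genes 2-fold higher where 10.9% of all genes were, and with 34 above 0 and 8 below. The gap between the list and all genes moved less than the level did: it was 2.17 after scaling, 1.92 as deposited and 2.02 with the globin-free scaling. The difference of each of the 42 genes exceeded the median of all genes under each of the 3 scalings. Against BFU-E, 38 of 42 were 2-fold higher and 0 lower in Ter119+ cells, where 21.2% of 10249 genes were higher and 35.8% lower, and the 38 became 20 on RPKM as deposited, where 8.97% of all genes were higher and 62.0% lower, and 25 with the globin-free scaling, where 11.7% were higher and 54.3% lower. Cdc25b had 1198 in Ter119+ cells and 23.1 in BFU-E (log2 difference 5.64), Mki67 had 1803 in Ter119+ cells and 88.8 in BFU-E (4.33), and Prc1 had 195 in Ter119+ cells and 20.6 in BFU-E (3.19, and 1.86 as deposited). The smallest differences were those of Bub3 with 110.5 in Ter119+ cells and 85.6 in BFU-E (0.37), Spc24 with 82.9 in Ter119+ cells and 49.9 in BFU-E (0.72) and Cdc20 with 159 in Ter119+ cells and 87.4 in BFU-E (0.85), and all of these 3 were below 0 as deposited and with the globin-free scaling. Both comparisons share the Ter119+ library.

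**Figure D2:**
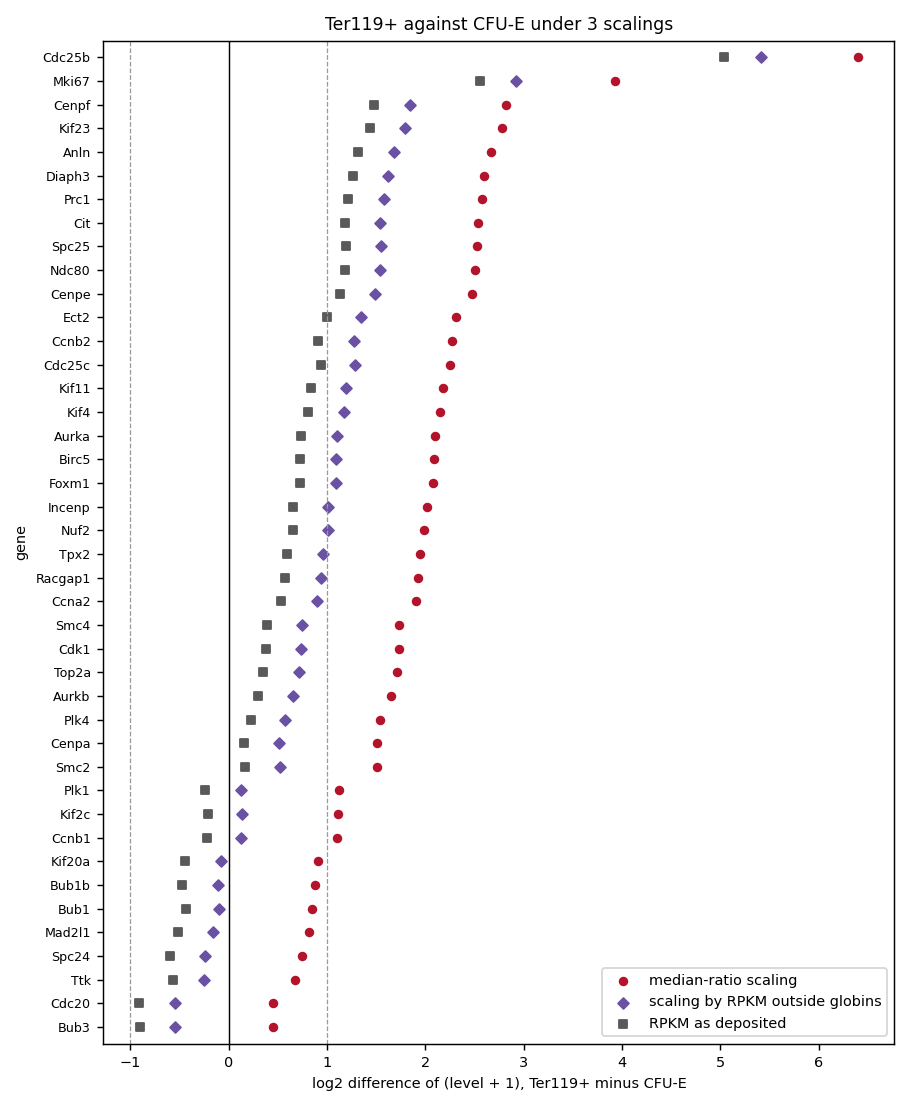
Difference of log2(level + 1), Ter119+ minus CFU-E, for each gene under the median-ratio scaling, a scaling by RPKM outside globin genes, and RPKM as deposited. Dashed lines mark 2-fold. The order of the genes is nearly the same under each scaling and the whole set slides along the axis: all 42 points lie above 0 after median-ratio scaling, 34 with the globin-free scaling and 31 as deposited, with Bub3 and Cdc20 lowest and Cdc25b highest.

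The cyclins and entry regulators were 2-fold higher in Ter119+ cells for 10 of 10 genes, with a median log2 difference of 1.99. With the globin-free scaling 5 of 10 were 2-fold higher (median 0.99), and on RPKM as deposited 1 of 10 was (median 0.63), with Ccnb1 and Plk1 below 0. Cdc25b had 1198 normalised RPKM in Ter119+ cells and 13.2 in CFU-E, a ratio of 91.0 (85.5 to 97.0). On RPKM as deposited its log2 difference was 5.04 rather than 6.40. In the 6 cultured libraries Cdc25b lay between 7.91 and 10.2, below both fresh progenitors, so the Ter119+ library stood alone. Cdc25c, a second CDK1 phosphatase, had 46.6 in Ter119+ cells and 8.99 in CFU-E.

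Cyclin transcripts did not move evenly. Ccnb2 had 356 in Ter119+ cells and 72.9 in CFU-E (log2 difference 2.27), Ccna2 had 439 in Ter119+ cells and 117 in CFU-E (1.90), and Ccnb1 had 43.3 in Ter119+ cells and 19.7 in CFU-E (1.10). On RPKM as deposited Ccnb1 was at -0.22 and Plk1 at -0.24. Sequence sharing makes the Ccnb1 level uncertain, since 46.8% of its 32-base words also occur in other genes or pseudogenes. Plk1, a kinase that acts from mitotic entry to cytokinesis, had 225 in Ter119+ cells and 103 in CFU-E. Cdk1 had 116 in Ter119+ cells and 34.5 in CFU-E (1.73), Aurka, the spindle pole kinase, had 268 in Ter119+ cells and 61.8 in CFU-E (2.10), and Foxm1 had 103 in Ter119+ cells and 23.7 in CFU-E (2.07). Plk4, which starts centriole duplication, had 36.5 in Ter119+ cells and 11.9 in CFU-E (1.54).

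Spindle checkpoint genes had the smallest differences of the 6 roles. None of the 6 was 2-fold higher in Ter119+ cells, their median log2 difference was 0.74, and all 6 turned below 0 with the globin-free scaling (median -0.20) and on RPKM as deposited (median -0.54). Bub3, whose protein brings BUB1 and BUBR1 to kinetochores, had 110.5 in Ter119+ cells and 80.8 in CFU-E (0.45). Cdc20, the APC/C activator, had 159 in Ter119+ cells and 116 in CFU-E (0.45), and 27.4% of its words are shared with other sequences. Mad2l1, which seals CDC20 into the checkpoint complex, had 52.2 in Ter119+ cells and 29.1 in CFU-E (0.82). Of the kinase genes, Bub1 had 22.3 in Ter119+ cells and 12.0 in CFU-E (0.84), and Ttk had 15.0 in Ter119+ cells and 9.08 in CFU-E (0.67). Bub1b, which encodes BUBR1, had 92.8 in Ter119+ cells and 50.1 in CFU-E (0.88). Outside this group only Spc24, at 0.75, lay below the highest checkpoint value, 0.88 for Bub1b. No test of the difference between roles was made.

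Kinetochore genes were 2-fold higher in Ter119+ cells for 6 of 7, with a median log2 difference of 2.47. With the globin-free scaling 5 of 7 were (median 1.49) and as deposited 4 of 7 (median 1.13), and Spc24 was below 0 under both. Cenpf, a large kinetochore protein of G2 and M, had 79.4 in Ter119+ cells and 10.4 in CFU-E (log2 difference 2.82), and Cenpe, a kinetochore motor, had 68.7 in Ter119+ cells and 11.6 in CFU-E (2.47). Subunits of the NDC80 complex, which joins kinetochores to microtubules, differed among themselves. Spc25 had 65.3 in Ter119+ cells and 10.5 in CFU-E (2.53), Ndc80 had 46.5 in Ter119+ cells and 7.37 in CFU-E (2.51), Nuf2 had 53.0 in Ter119+ cells and 12.7 in CFU-E (1.98), and Spc24 had 82.9 in Ter119+ cells and 48.9 in CFU-E (0.75). The 3 genes that differed most were the lowest of the complex in CFU-E, and Spc24 the highest. Cenpa, the centromeric histone H3 variant, had 181 in Ter119+ cells and 62.9 in CFU-E (1.51).

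All 3 spindle genes were 2-fold higher in Ter119+ cells after median-ratio scaling, 1 of 3 with the globin-free scaling and 0 of 3 as deposited, where Kif2c was below 0. Kif11, the motor that pushes spindle poles apart, had 113 in Ter119+ cells and 24.1 in CFU-E. Tpx2, which activates Aurora A on the spindle, had 142 in Ter119+ cells and 36.1 in CFU-E. Kif2c, a microtubule depolymerase, had 46.0 in Ter119+ cells and 20.8 in CFU-E (1.11, and -0.22 as deposited).

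In the chromosome structure group 5 of 5 genes were 2-fold higher in Ter119+ cells, with a median log2 difference of 1.73. With the globin-free scaling 2 of 5 were 2-fold higher (median 0.75) and as deposited 1 of 5 (median 0.38), and 5 of 5 lay above 0 under each scaling. Mki67, which encodes the Ki-67 protein that coats mitotic chromosomes and marks cycling cells, had 1803 in Ter119+ cells and 118 in CFU-E, a ratio of 15.3 (15.1 to 15.5), and its log2 difference was 3.93 after scaling and 2.56 as deposited. Top2a, the topoisomerase that untangles sister chromatids, had 270.4 in Ter119+ cells and 82.0 in CFU-E (1.71). Condensin genes were close to each other, Smc4 with 102 in Ter119+ cells and 30.0 in CFU-E (1.73) and Smc2 with 70.3 in Ter119+ cells and 24.1 in CFU-E (1.51). Kif4, a chromosome-bound kinesin, had 74.7 in Ter119+ cells and 16.1 in CFU-E (2.15).

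Passenger and cytokinesis genes were 2-fold higher in Ter119+ cells for 10 of 11, with a median log2 difference of 2.31. With the globin-free scaling 8 of 11 were (median 1.35) and as deposited 5 of 11 (median 0.997), and Kif20a was below 0 under both. Of the partners in centralspindlin, Kif23 had 103 in Ter119+ cells and 14.2 in CFU-E (2.78), and Racgap1 had 144 in Ter119+ cells and 37.2 in CFU-E (1.93). Anln, the anillin gene of the contractile ring, had 107 in Ter119+ cells and 16.0 in CFU-E (2.67). Diaph3, a formin, had 65.3 in Ter119+ cells and 9.98 in CFU-E (2.59). Prc1, which bundles central spindle microtubules, had 195 in Ter119+ cells and 32.0 in CFU-E (2.57), Cit, the citron kinase gene of the midbody, had 139 in Ter119+ cells and 23.2 in CFU-E (2.53), and Ect2, which activates RhoA at the furrow, had 40.3 in Ter119+ cells and 7.34 in CFU-E (2.31). The passenger complex genes were more abundant than the other 8 in both libraries. Birc5 (survivin) had 388 in Ter119+ cells and 90.6 in CFU-E (2.09), Incenp had 311 in Ter119+ cells and 76.3 in CFU-E (2.01), and Aurkb had 219 in Ter119+ cells and 68.8 in CFU-E (1.66). Kif20a, a kinesin that carries the complex to the central spindle, had 110.1 in Ter119+ cells and 58.2 in CFU-E (0.91). Its reads may mix with those of Cdc23, which overlaps it, and 32.5% of its words are shared.

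Of the 118 further mitosis genes, 74 were 2-fold higher and 2 lower in Ter119+ cells, with a median of 1.32. With the globin-free scaling 23 were higher and 10 lower (median 0.42), where 10.9% of all genes were higher and 51.5% lower. On RPKM as deposited 11 were higher and 20 lower (median 0.06), where 8.46% of all genes were higher and 60.3% lower. Fzr1, which encodes CDH1, the APC/C activator of late mitosis and G1, had 1262 in Ter119+ cells and 58.3 in CFU-E, a ratio of 21.6 (21.0 to 22.3). Ube2c, the APC/C's initiating ubiquitin-conjugating enzyme, had 1435 in Ter119+ cells and 97.4 in CFU-E (14.7, 14.1 to 15.4), with 19.7% of its words shared, and Depdc1b had 79.2 in Ter119+ cells and 4.44 in CFU-E. Both activators of the APC/C were thus measured, and the ratio of 21.6 for Fzr1 stood beside 1.37 (1.30 to 1.44) for Cdc20. Lower were Trip13, an ATPase that disassembles the checkpoint complex, with 8.59 in Ter119+ cells and 21.1 in CFU-E, and Anapc4, an APC/C subunit, with 4.69 in Ter119+ cells and 11.7 in CFU-E. Of 48 DNA replication genes 13 were 2-fold higher and 1 lower, with a median of 0.56. With the globin-free scaling 1 of them was higher and 7 lower (median -0.40). On RPKM as deposited 1 was higher and 15 lower (median -0.74).

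Markers of other cells also differed between the fresh libraries. Neutrophil markers summed to 99.4 normalised RPKM in BFU-E, 5.02 in CFU-E and 212 in Ter119+ cells. Of 11, 3 were at 1 or more in BFU-E, 2 in CFU-E and 10 in Ter119+ cells. Mpo at 71.5 and Prtn3 at 24.6 made most of the BFU-E sum. As deposited the neutrophil sums were 105 in BFU-E, 5.45 in CFU-E and 88.8 in Ter119+ cells, so only the order of Ter119+ cells and BFU-E turned with the scaling. Macrophage markers summed to 2.86 in BFU-E, 0.781 in CFU-E and 27.1 in Ter119+ cells, with 6 of 10 at 1 or more and 2 at 0 in Ter119+ cells. Megakaryocyte markers summed to 88.1 in BFU-E, 15.5 in CFU-E and 94.8 in Ter119+ cells (39.7 as deposited), with 7 of 8 at 1 or more in Ter119+ cells. Hepatocyte markers summed to 33.6 in BFU-E, 12.2 in CFU-E and 27.9 in Ter119+ cells, and as deposited to 13.2 in CFU-E and 11.7 in Ter119+ cells, with 6 of 9 at 1 or more in Ter119+ cells after scaling. Lymphoid markers summed to 9.35 in BFU-E, 1.05 in CFU-E and 10.5 in Ter119+ cells, with 1 of 8 at 1 or more and 4 at 0 in Ter119+ cells. Endothelial markers had their lowest sum in Ter119+ cells, at 42 in BFU-E, 23.5 in CFU-E and 3.44 in Ter119+ cells. Of 7, 3 were at 1 or more in BFU-E, 1 in CFU-E and 1 in Ter119+ cells, where 2 were at 0. Eng made most of the BFU-E and CFU-E sums, with 29.7 in BFU-E, 23.1 in CFU-E and 1.55 in Ter119+ cells. Cdh5, Kdr and Stab2, each below 1, were highest in Ter119+ cells, while Eng, Pecam1, Tek and Emcn were highest in BFU-E. The part of other cells in the mitosis gene levels was not tested. Transcript length also ran with the difference: 15 genes of 4 kb or more had a median log2 difference of 2.18 and 27 shorter ones 1.66, where all genes had -0.15 (4 kb or more) and -0.25 (shorter). Across the 42 genes Spearman's rho with length was 0.34, and across all genes 0.02. These are across genes of the same libraries, which are not independent, and the part of length was not tested.

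The next comparison set water-treated cultured BFU-E against fresh BFU-E. In the CD71 sort 1 gene was 2-fold higher and 1 lower, where 6.27% of 10060 genes were higher and 9.06% lower. In the CD71/CD24a sort 8 were higher and 1 lower, where 11.2% of 10080 genes were higher and 12.9% lower. Ccnb1 was the highest in both, with 35.9 in the CD71 sort and 46.4 in the CD71/CD24a sort against 10.5 in fresh BFU-E, ratios of 3.41 (3.06 to 3.79) and 4.40 (4.00 to 4.85). Cdc25b was the lowest in both, with 8.24 in the CD71 sort and 8.69 in the CD71/CD24a sort against 23.1 in fresh BFU-E, ratios of 0.356 (0.313 to 0.404) and 0.376 (0.340 to 0.416). So cultured cells had more cyclin B1 transcript than either fresh progenitor and less Cdc25b transcript, in both sorts.

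The other 7 genes that were 2-fold higher in the cultured CD71/CD24a sort came from several roles. Spc25 had 27.2 in culture and 7.39 in fresh BFU-E (log2 difference 1.75), Smc2 had 48.6 in culture and 14.9 in fresh BFU-E (1.65), and Smc4 had 56.5 in culture and 18.1 in fresh BFU-E (1.59). Plk4 had 26.2 in culture and 10.2 in fresh BFU-E (1.29), Mad2l1 had 50.3 in culture and 23.5 in fresh BFU-E (1.07), Nuf2 had 21.7 in culture and 9.91 in fresh BFU-E (1.06), and Cenpe had 18.9 in culture and 8.82 in fresh BFU-E (1.02). On the lower side, short of 2-fold, were Foxm1 with 18.1 in culture and 29.8 in fresh BFU-E, and Ccnb2 with 43.5 in culture and 69.4 in fresh BFU-E. The 2 B-type cyclins thus lay on opposite sides of fresh BFU-E. Culture, sort and library cannot be told apart here for the CD71/CD24a cells, since the fresh BFU-E were sorted without CD24a. Kit and Tfrc also differed between cultured and fresh BFU-E in both sorts, and the part of maturation stage was not tested. Of 119 further mitosis genes, 5 were 2-fold higher and 1 lower in the CD71 sort, and 23 higher and 5 lower in the CD71/CD24a sort. Cenpk, a kinetochore subunit, had 4.46 in the cultured CD71 sort and 8.68 in the cultured CD71/CD24a sort against 1.01 in fresh BFU-E, and Knl1, the kinetochore scaffold of the checkpoint, had 11.1 in the cultured CD71 sort and 18.4 in the cultured CD71/CD24a sort against 3.87 in fresh BFU-E. Pkmyt1, a kinase that inhibits CDK1, led the lower genes of the CD71/CD24a sort, with 9.82 in culture and 36.1 in fresh BFU-E.

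**Figure D3:**
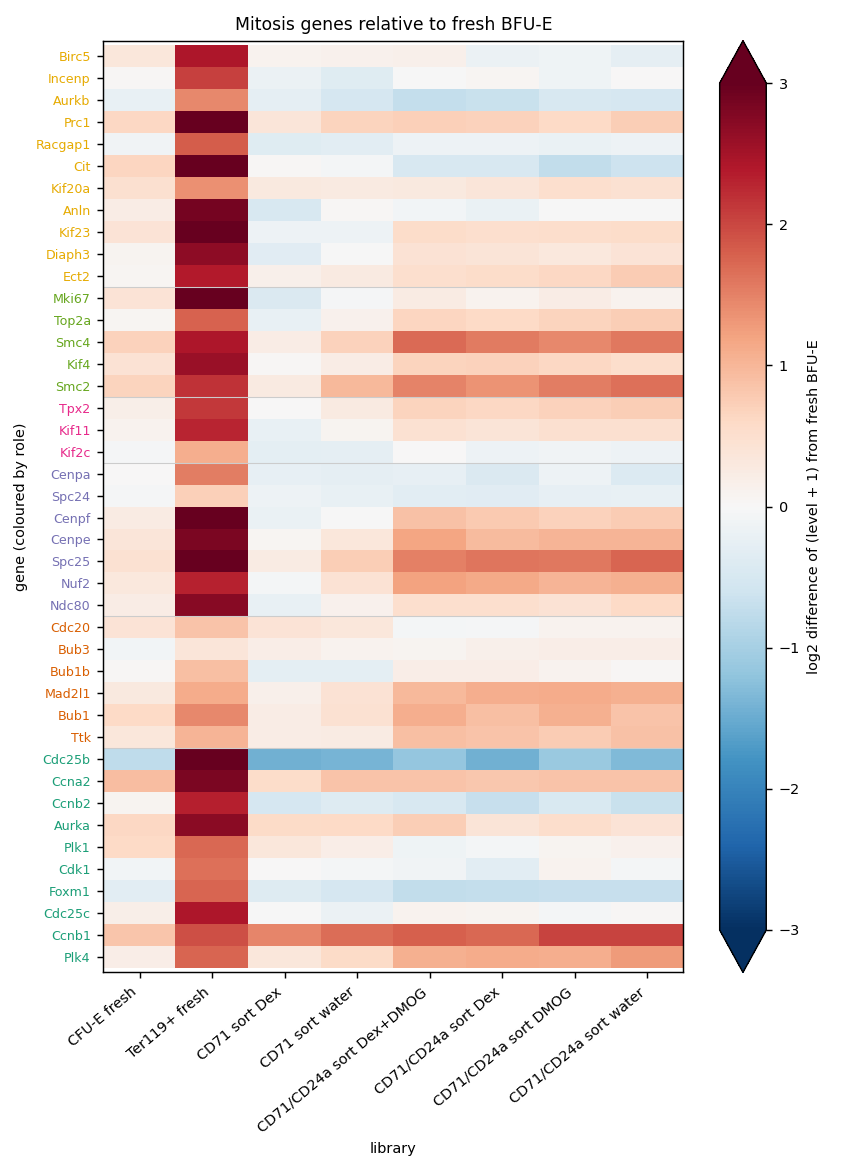
Heat map of the difference in log2(level + 1) from fresh BFU-E for each of the 42 genes (rows, coloured by role) in the other 8 libraries (columns), 1 library per column. The Ter119+ column is the darkest red, Ccnb1 is red in all cultured libraries, and Cdc25b is blue in CFU-E and in culture. Condensin genes and most kinetochore genes are redder in the 4 CD71/CD24a libraries than in the 2 of the CD71 sort. Spc24 and Cenpa are kinetochore genes that do not share this.

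After median-ratio scaling, the genes chosen to be followed over all 9 libraries varied less in culture than between stages. Cdk1 ranged from 29.0 to 39.0 in culture, with 34.5 in CFU-E and 36.3 in BFU-E, so that only the Ter119+ library at 116 left that band. On RPKM as deposited Cdk1 had 37.4 in CFU-E, 38.3 in BFU-E and 48.8 in Ter119+ cells, against 33.7 to 46.2 in culture. The gap thus depends on scaling. Top2a as deposited had 82.9 to 113 in the fresh libraries and 70.55 to 153 in culture, so it varied more in culture. Plk1 had 86.7 with Dex and 77.6 with water after the CD71 sort. It had 61.6 with Dex and DMOG, 65.4 with Dex, 72.0 with DMOG and 74.3 with water in the CD71/CD24a sort. Cdc20 had 116 with Dex and 111 with water after the CD71 sort. After the CD71/CD24a sort it had 84.4 with Dex and DMOG, 85.8 with Dex, 94.8 with DMOG and 94.8 with water. Both genes were thus higher with Dex in the CD71 sort and lower with Dex in the CD71/CD24a sort.

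Aurkb showed that pattern too, with 66.3 (Dex) and 56.3 (water) in the CD71 sort, and 48.8 (Dex with DMOG), 50.3 (Dex), 56.9 (DMOG) and 56.0 (water) in the CD71/CD24a sort. Top2a was lower with Dex in each pair and higher in the CD71/CD24a sort, with 67.6 (Dex) and 86.1 (water) in the CD71 sort, and 123 (Dex with DMOG), 119 (Dex), 125 (DMOG) and 131 (water) in the CD71/CD24a sort. Mki67 had 66.0 (Dex) and 86.5 (water) in the CD71 sort, and 106 (Dex with DMOG), 95.1 (Dex), 103 (DMOG) and 96.2 (water) in the CD71/CD24a sort. Its lowest culture was thus the CD71 sort with Dex. Foxm1 had 22.7 (Dex) and 20.7 (water) in the CD71 sort, and 17.6 (Dex with DMOG), 17.9 (Dex), 18.2 (DMOG) and 18.1 (water) in the CD71/CD24a sort. Bub3 varied least of these genes, with 97.9 (Dex) and 92.3 (water) in the CD71 sort, and 90.5 (Dex with DMOG), 95.3 (Dex), 98.7 (DMOG) and 98.9 (water) in the CD71/CD24a sort.

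Sort was compared between water libraries and, as a comparison added later, between Dex libraries. In CD71/CD24a sort against CD71 sort with water, 1 of 42 genes was 2-fold higher and 0 lower, where 1.44% of 9737 genes were higher and 3.07% lower. That gene was Spc25, with 27.2 in the CD71/CD24a sort and 13.1 in the CD71 sort (log2 difference 1.002, just past the limit). Smc4 came next with 56.5 in the CD71/CD24a sort and 29.8 in the CD71 sort (0.90), then Cenpf with 15.2 in the CD71/CD24a sort and 8.42 in the CD71 sort (0.79). Cit was the lowest, with 9.03 in the CD71/CD24a sort and 13.7 in the CD71 sort (-0.55). Birc5 followed with 59.1 in the CD71/CD24a sort and 78.2 in the CD71 sort (-0.40), then Ccnb2 with 43.5 in the CD71/CD24a sort and 52.7 in the CD71 sort (-0.27). Role medians were 0.62 for kinetochore genes, 0.60 for chromosome structure, 0.40 for spindle genes, 0.35 for checkpoint genes, 0.18 for passenger and cytokinesis genes and 0.00 for cyclins and entry kinases, against 0.04 over all genes. On RPKM as deposited the median of all genes was 0.22 and that of cyclins and entry kinases 0.20. No test of a difference between roles was made.

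With Dex, 4 of 42 genes were 2-fold higher in the CD71/CD24a sort and 0 lower, where 3.67% of 9688 genes were higher and 4.60% lower. Spc25 had 24.4 in the CD71/CD24a sort and 9.02 in the CD71 sort (1.34), Smc4 had 55.5 in the CD71/CD24a sort and 21.5 in the CD71 sort (1.33), Nuf2 had 23.1 in the CD71/CD24a sort and 9.54 in the CD71 sort (1.19), and Smc2 had 39.6 in the CD71/CD24a sort and 18.2 in the CD71 sort (1.08). Cit was again the lowest, with 10.1 in the CD71/CD24a sort and 14.9 in the CD71 sort (-0.52). The water libraries also differed in depth, at 18.4 M reads for the CD71/CD24a sort and 11.8 M for the CD71 sort. Neutrophil markers summed to 6.51 in the CD71/CD24a sort, with 2 of 11 at 1 or more and 5 at 0, and to 27.0 in the CD71 sort, with 4 of 11 at 1 or more and 2 at 0. Erythroid markers summed to 621.5 in the CD71/CD24a sort and 1705 in the CD71 sort. Genes of 4 kb or more had a median of 0.43 with water among the 42, and shorter ones 0.18. Their part in these differences was not tested, and sort and library cannot be told apart.

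**Figure D4:**
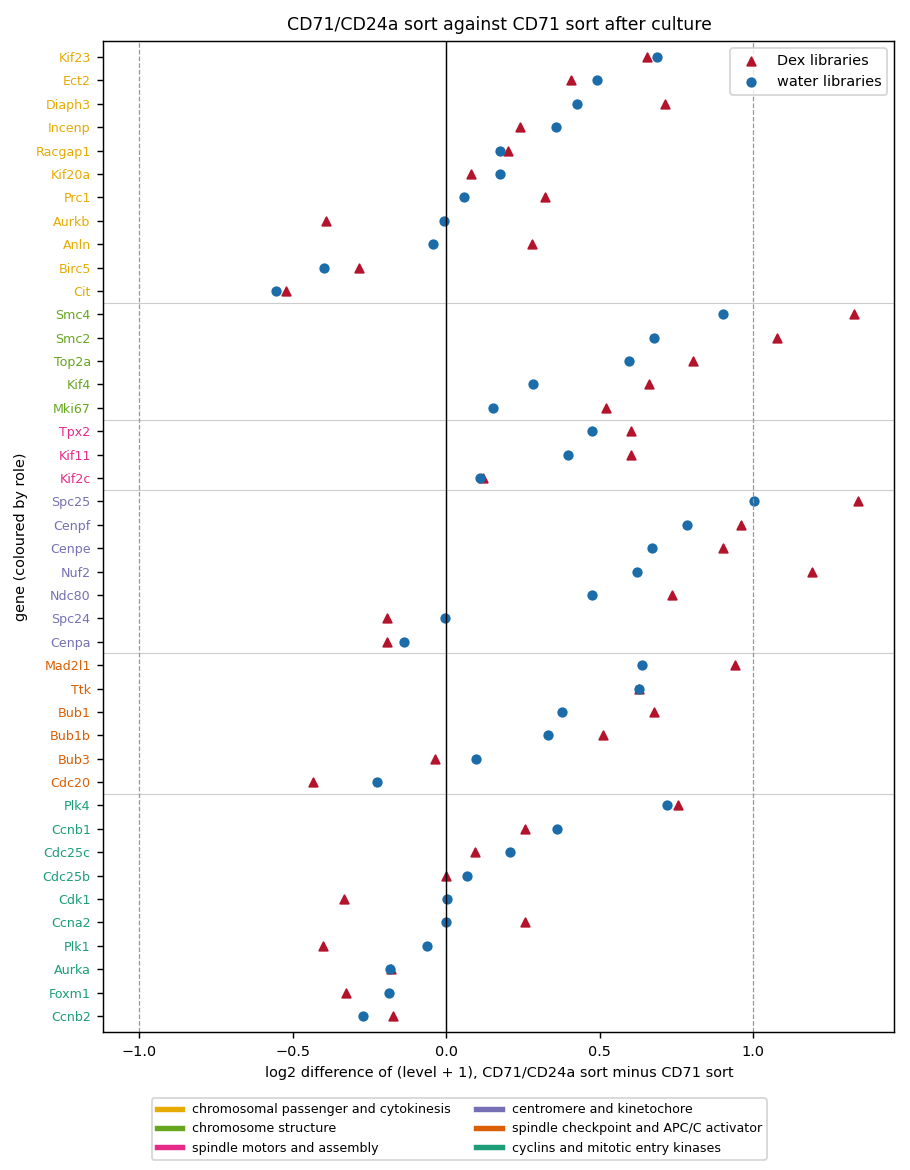
Difference of log2(level + 1), CD71/CD24a sort minus CD71 sort, for each gene in the Dex libraries (triangles) and the water libraries (circles), grouped by role, with 1 library per sort and arm. Dashed lines mark 2-fold. Chromosome structure genes lie above 0 in both arms, cyclins and entry kinases lie around 0, and Spc25, Smc4, Nuf2 and Smc2 pass 2-fold with Dex.

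The effect of Dex was tested with limma over the 3 culture pairs (CD71 sort, CD71/CD24a sort, and CD71/CD24a sort with DMOG in both arms), with Benjamini-Hochberg adjustment over 9535 genes. The p-values measure the spread between these pairs, which may be technical. The CD71/CD24a pairs may come from the same sorted cells, so the 3 pairs may not be independent repeats. Of the 42 genes 0 rose and 0 fell at an adjusted p under 0.05, where 1.39% of all genes rose and 0.629% fell. At an unadjusted p under 0.05 there were 3 of 42 (7.14%), against 16.2% of all genes. That count was 8 of 42 (19.05%) without the CD71 sort pair, against 27.8% of all genes, and 1 of 42 (2.38%) without the CD71/CD24a sort pair, against 8.86%. The 95% intervals of the 42 genes reached from -0.64 to 0.35 at their widest, and from -0.41 to 0.38 without the CD71 sort pair. They reached from -1.32 to 0.998 in a fit without a term for sort, which kept Dex and DMOG.

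Ccnb1 came closest. It had 31.0 normalised RPKM with Dex and 35.9 with water in the CD71 sort, 37.2 with Dex and 46.4 with water in the CD71/CD24a sort, and 39.0 with Dex and DMOG and 45.8 with DMOG. It was lower with Dex in 3 of 3 pairs, with a log2 difference of -0.25 (SE 0.067, 95% interval -0.41 to -0.09) and a limma adjusted p of 0.155. Without the CD71 sort pair the difference was -0.27 with a limma adjusted p of 0.0236. Cdk1 was then also called, at -0.23 with a limma adjusted p of 0.0417, where 5.15% of all genes rose and 7.15% fell. That fit held only CD71/CD24a libraries and left 1 residual degree of freedom, so its p-values measure no spread between sorts. Cdk1 had 36.8 with Dex and 35.0 with water in the CD71 sort, 29.0 with Dex and 35.1 with water in the CD71/CD24a sort, and 33.8 with Dex and DMOG and 39.0 with DMOG. It was higher with Dex in the first pair and lower in the other two.

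Smc2 had the largest estimate, -0.34 (SE 0.123, limma adjusted p 0.250), with 18.2 with Dex and 30.0 with water in the CD71 sort, 39.6 with Dex and 48.6 with water in the CD71/CD24a sort, and 43.5 with Dex and DMOG and 45.3 with DMOG. Anln came next to Ccnb1, at -0.25 (SE 0.099, limma adjusted p 0.286), with 9.52 (Dex) and 13.9 (water) in the CD71 sort, 11.8 (Dex) and 13.4 (water) in the CD71/CD24a sort, and 12.8 (Dex with DMOG) and 13.6 (DMOG). Both genes were lower with Dex in 3 of 3 pairs, by the most in the CD71 sort. On the higher side Cit led at 0.17 (SE 0.074, limma adjusted p 0.321), with 14.9 (Dex) and 13.7 (water) in the CD71 sort, 10.1 (Dex) and 9.03 (water) in the CD71/CD24a sort, and 10.0 (Dex with DMOG) and 8.26 (DMOG). Cdc25c and Incenp came next. None of these differences passed the threshold.

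Over the list, 30 of 42 estimates were below 0 and 12 above, with a median of -0.07 against -0.02 over all genes. Lower with Dex in all 3 pairs were 12 of 42 (28.6%), against 21.2% of all genes. They were Ccna2, Ccnb1, Ccnb2, Cdc25b, Plk4, Spc25, Kif11, Tpx2, Top2a, Smc2, Anln and Ect2. Higher in all 3 pairs were Cdc25c, Incenp and Cit (7.14%), against 19.6% of all genes. The median Dex difference of the CD71 sort was -0.13, that of the CD71/CD24a sort -0.04, and that with DMOG -0.01. Of 119 further mitosis genes and 48 replication genes tested, 0 were called, with 13 and 7 at an unadjusted p under 0.05.

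**Figure D5:**
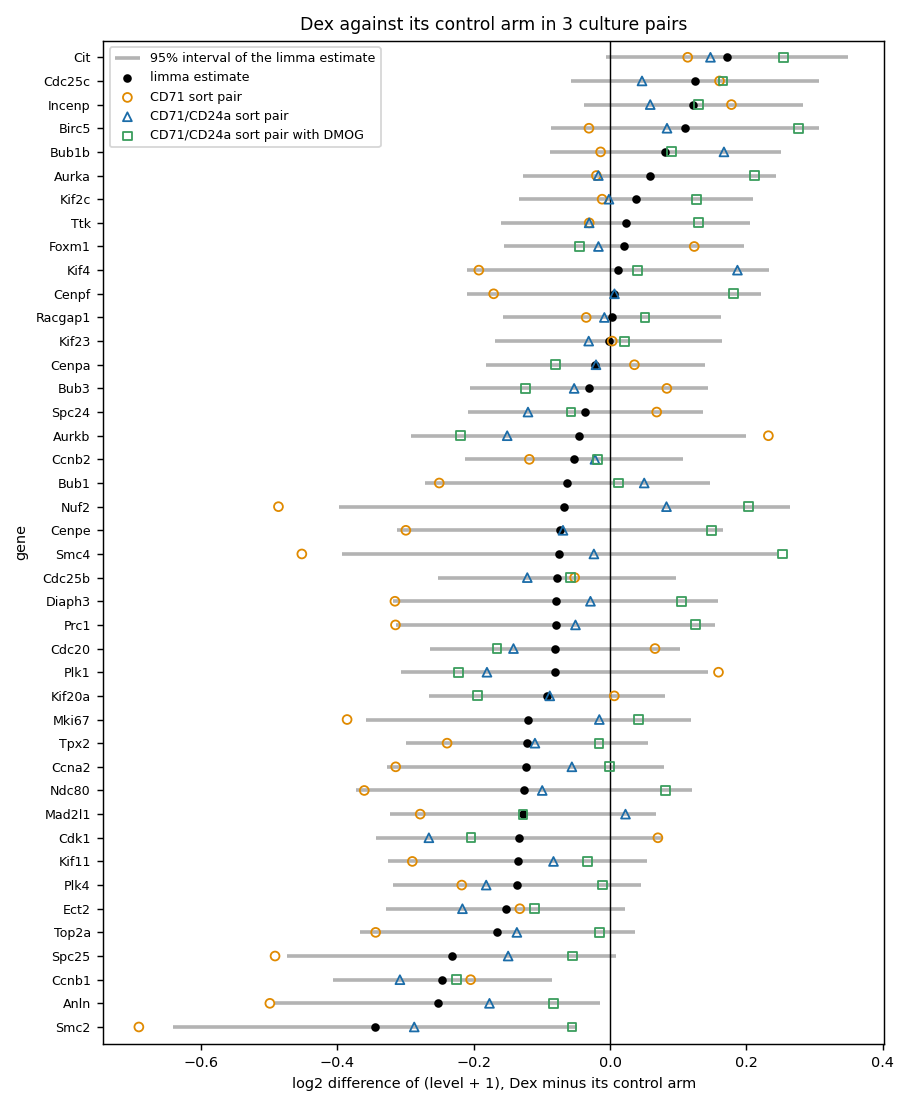
Difference of log2(level + 1), Dex minus its control arm, for each gene in the 3 culture pairs (open symbols), with the limma estimate (black) and its 95% interval (grey). The CD71 sort pair lies farthest left for Smc2, Anln, Spc25, Nuf2 and Smc4, and for Ccnb1 the 3 pairs lie together between -0.31 and -0.20.

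A term for Dex by sort was added after the values were seen and left 1 residual degree of freedom. It sets the single CD71 sort pair against the other two, so no spread of the Dex difference within that sort was measured. It was past an adjusted p of 0.05 for 3 of 42 genes, all with a positive term, where 3.48% of all genes had a positive and 2.55% a negative call. A positive term means a Dex difference that is less negative, or more positive, in the CD71/CD24a sort. In size, the Dex difference of each of the 3 was largest in the CD71 pair. Nuf2 differed by -0.49 with Dex in the CD71 pair, by 0.08 in the CD71/CD24a pair and by 0.20 with DMOG, a term of 0.63 (SE 0.127, limma adjusted p 0.0175). For Smc4 the differences were -0.45 (CD71 pair), -0.02 (CD71/CD24a pair) and 0.25 (with DMOG), a term of 0.57 (SE 0.134, limma adjusted p 0.0329). For Smc2 they were -0.69 (CD71 pair), -0.29 (CD71/CD24a pair) and -0.06 (with DMOG), a term of 0.52 (SE 0.130, limma adjusted p 0.0397). In the CD71 sort Nuf2 had 9.54 with Dex and 13.8 with water, and Smc4 had 21.5 with Dex and 29.8 with water. The calls depended on the settings. Smc2 and Smc4 lost theirs on RPKM as deposited (limma adjusted p 0.0673 for Smc2 and 0.0561 for Smc4), with a pseudocount of 0.1 (0.0553 for Smc2 and 0.0503 for Smc4) and with no mean-variance trend (0.0918 for Smc2 and 0.0818 for Smc4). Smc2 also lost its call with the records of a gene summed (0.0571). All 3 lost theirs with no filter on low values (0.219 to 0.252).

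DMOG was tested in the same fit, over the CD71/CD24a sort with and without Dex. The spread in that fit is that of the Dex differences over the 3 culture pairs. Each arm with DMOG was 1 library, so no spread between repeated DMOG cultures was measured. Of the 42 genes 0 rose and 0 fell, where 0.0210% of all genes rose and 0.00% fell. At an unadjusted p under 0.05 there were 3 of 42 (7.14%), against 3.64% of all genes. Leaving out a library gave 0 of 42 without the Dex library, the water library or the library with Dex and DMOG, and 2 without the DMOG library. Cenpa had 52.3 with Dex and DMOG and 45.6 with Dex, and 55.3 with DMOG and 46.3 with water, a log2 difference of 0.22 (95% interval 0.03 to 0.42, limma adjusted p 0.999). Cdc25b had 9.71 with Dex and DMOG and 7.91 with Dex, and 10.2 with DMOG and 8.69 with water (0.24, 0.02 to 0.45, limma adjusted p 0.999). Ccnb2 had 49.3 with Dex and DMOG and 42.8 with Dex, and 49.98 with DMOG and 43.5 with water (0.20, 0.00 to 0.39, limma adjusted p 0.999). Each of these was higher with DMOG in both pairs. The 42 estimates were split into 22 above 0 and 20 below, with a median of 0.00. The term for Dex by DMOG called 0 genes in the whole table, with 275 at an unadjusted p under 0.05, among them Smc4 of the 42 (0.49, p 0.0412 in limma's fit, adjusted p 0.999). Dex and DMOG estimates share the 4 CD71/CD24a libraries.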

How the data were processed

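Per the labels' protocols, an Illumina kit was used for paired-end sequencing of mRNA. The authors deposited RPKM for each RefSeq transcript record. Per the submitters' processing notes these rest on mm9. Which aligner and counter were used, and whether strand was kept, is not given in the sources used here. In the 4 CD71/CD24a files no value is 0 and 5954 to 7412 are exactly 1, so an exact 1 was read as 0.

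Of 23041 records, 22397 took a symbol from RefSeq and 114 from GENCODE, both of GRCm38, and 530 had none. For a gene with several records, the one with the highest mean was used. Low RPKM values rise in steps of 1 read, which gave the depth: 67.0% to 69.9% of them were whole reads within a tolerance of 0.1, against 20% by chance. At that depth 3 reads on a 1 kb transcript were 0.0568 to 0.254 RPKM. Read counts behind the intervals are such estimates, and PCR copies are not independent molecules. Libraries were divided by median-ratio factors over 6888 genes at 1 or more RPKM in every library. Sequence sharing was the percent of a transcript's 32-base words, sampled 1 in 4, found in other genes or pseudogenes. It reached 10% for Ccna2, Ccnb1, Plk1, Cdc20, Ndc80, Spc24, Kif4, Kif20a, Prc1 and Racgap1, whose levels are uncertain to that degree.

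Fresh libraries and sorts were compared by size only, over genes at 1 or more normalised RPKM in either library, on log2(normalised RPKM + 1), which understates changes of low genes. Cultured libraries were tested with limma 3.58.1 in R 4.3.3 (mean-variance trend) over the 9535 genes whose mean in culture reached 1 normalised RPKM. The model held the culture pair and Dex, with 2 residual and 4.31 prior degrees of freedom. Pairing comes from the labels' treatment protocol, in which the cells of a sort were divided between arms. The test was checked on simulated data. Python 3.11.15 made the other tables. The wider mitosis list held 123 genes, of which 4 are not analysed here, as is 1 of 49 replication genes.

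The members and lists were chosen with earlier results of these data known. Any of the 42 genes could be named. Those given in full were Ccnb1, Cdk1, Plk1, Cdc20, Aurkb, Mki67, Top2a, Foxm1 and Bub3, and the 3 with the largest difference in each direction per comparison. Of the wider mitosis list, up to 3 genes among the furthest past the size rule in each direction were named. This was not done for every comparison, and none were named for Ter119+ cells against BFU-E.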

Additional observations from a re-analysis of the deposited data

Results flagged for a closer look

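The Dex-by-sort term, added after the values were seen, passed an adjusted p of 0.05 in limma for Nuf2 (0.63 on the log2 scale), Smc2 (0.52) and Smc4 (0.57). With no filter on low values all 3 missed it, and Smc2 and Smc4 also missed it with no scaling, with a pseudocount of 0.1 and with no mean-variance trend. In each case the CD71 sort pair was the lowest of the 3 pairs, and it is the only pair of that sort, so the spread within that sort is not known. The CD71 sort libraries were also the shallowest, at 12.9 M reads with Dex and 11.8 M with water. The part of depth was not tested. All genes held 332 positive and 243 negative calls of that term.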

How the results depend on the processing

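Scaling decided the counts that involve the Ter119+ library. The 34 genes 2-fold higher than in CFU-E became 11 with no scaling and 21 with libraries scaled by RPKM outside globins, and the 38 higher than in BFU-E became 20 and 25. With no scaling Ccnb1, Plk1 and Kif2c turned to -0.22, -0.24 and -0.22 against CFU-E, and Mad2l1, Ttk and Kif2c to -0.18, -0.19 and -0.20 against BFU-E. The globin-free scaling and the comparison of the sorts with Dex were chosen after seeing the data, as was the Dex-by-sort term. In the CD71 sort against fresh BFU-E, genes 2-fold higher numbered 2 with a pseudocount of 0.1, against 1. Between sorts with water they numbered 2 with no scaling and 4 in the Dex libraries, against 1. Leaving out each culture pair in turn gave 0 to 2 genes called for Dex, and the 2 came without the CD71 sort pair. Leaving out each CD71/CD24a library gave 0 for DMOG. The Dex-by-sort term called 1 gene with no scaling, 1 with a pseudocount of 0.1, 0 with no filter and 1 with no mean-variance trend, against 3, and the cause was not tested. A fit that kept Dex and DMOG but had no term for sort called 0 of the 42 genes for Dex and 0 for DMOG. The paired fit also called 0. Without that term the DMOG estimate also holds the difference between sorts, so it cannot check the DMOG result. Its median over the 42 genes was 0.17, with 35 above 0 and 7 below, against 0.00 in the paired fit. Leaving out a library was not possible in the fresh comparisons, with 1 per stage. Depth limits the low genes: 3 reads on a 1 kb transcript were 0.0568 to 0.254 RPKM.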

Other observations

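Ube2s, which extends ubiquitin chains for the APC/C and is outside the 42 genes, stood at 113 normalised RPKM in the CD71 sort water library. It had 13.4 in the CD71 sort with Dex, and 6.49 to 12.5 in the 4 CD71/CD24a libraries. The fresh libraries had 10.0 in BFU-E, 12.2 in CFU-E and 88.9 in Ter119+ cells. It was the furthest of the wider mitosis list in the comparison of sorts with water, at a log2 difference of -3.34 for CD71/CD24a sort against CD71 sort. Haus3, an augmin subunit, led the other side, with 26.5 in the CD71/CD24a sort and 10.8 in the CD71 sort. Pkmyt1, a kinase that inhibits CDK1, had 9.82 in the CD71/CD24a sort and 26.4 in the CD71 sort. Cep55 had 2.86 to 6.38 in the 6 cultured libraries, against 3.94 in fresh BFU-E and 0.317 in CFU-E, and was listed at 0 in Ter119+ cells. Pimreg had 24.2 to 35.8 in culture, against 19.2 in fresh BFU-E, 0.711 in CFU-E and 1.02 in Ter119+ cells.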
